A study of Homo sapiens with 6 samples.

Results

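The genes described here are 8 genes of cytosolic and endosomal RNA sensing and of the IFIT family in MDA-MB-231, an established human cell line from a triple-negative breast tumour. They are IFIT1, IFIT2, IFIT3, IFIT5, IFIH1, TLR3, EIF2AK2 and MAVS, looked up by symbol from the 17088 genes of the deposited table. One set of cells carried a vector labelled VecRPPH1 for overexpression of the noncoding RNA RPPH1, the RNA subunit of RNase P, and the control cells carried a vector labelled VecNC. Each group had 3 libraries, and no other treatment or genotype was named for either. The labels did not say whether the lines were clones or pools, or whether the replicates are independent cultures. The p-values below therefore reflect library-to-library spread that may be technical. The single comparison asked which transcripts differ when RPPH1 is overexpressed. The RPPH1 transcript itself was not analysed here, so its overexpression has no check in these values. The 8 genes were chosen by pathway with their measured FPKM differences between these groups in view, so those differences are a description and not a test. In bulk RNA, fewer cells expressing a gene and less RNA per cell cannot be told apart.

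Cells meet foreign or misplaced RNA with a small set of receptors. MDA5, encoded by IFIH1, binds long double-stranded RNA in the cytosol and signals through MAVS, an adaptor on the outer membrane of mitochondria. TLR3 binds double-stranded RNA in endosomes and signals through a different adaptor, TICAM1, and PKR, encoded by EIF2AK2, is a kinase that slows translation by phosphorylating eIF2 alpha when it binds double-stranded RNA. MAVS and TLR3 signalling induce type I interferon, which through the factor ISGF3 switches on interferon-stimulated genes. The IFIT genes are classical members of that set and can also be induced directly by the factor IRF3. Their proteins are built of tetratricopeptide repeats. IFIT1 and IFIT5 bind RNA with particular 5' ends, IFIT3 stabilises IFIT1, and IFIT2 forms complexes with both.

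Expression was given as FPKM, a fragment rate scaled by gene length and by library total, so levels can be compared between genes. Libraries held 17603126 to 18817269 fragments. A gene was tested when it had at least 1 FPKM in at least 3 libraries, which left 10909 genes and all 8 members. VecNC replicate 1 stood apart from the other libraries in a principal component analysis (-10.9 on component 1, others from -0.107 to 4.4). Of the 8 mesenchymal markers, 7 passed the filter and all reached 1 FPKM in at least 1 library. Their summed level was 3409 to 3452 FPKM in VecRPPH1 libraries and 3509 to 3594 FPKM in VecNC libraries. These sums did not overlap, VecRPPH1 being the lower, and most of each came from VIM. VIM, the mesenchymal filament protein, averaged 2599 ± 21.9 FPKM in VecRPPH1 cells and 2699 ± 38.3 FPKM in VecNC cells (± is the SD over 3 libraries here and below). Luminal epithelial markers were mixed, since 4 of the 7 in the table passed the filter and 3 were under 1 FPKM in every library. Their summed level was 126 to 144 FPKM in VecRPPH1 cells and 112 to 145 FPKM in VecNC cells. Most of it came from the keratin gene KRT19, at 113 ± 8.15 FPKM in VecRPPH1 cells and 109 ± 17.2 FPKM in VecNC cells. Among the 3 low ones, the epithelial cadherin gene CDH1 averaged 0.015 ± 0.026 FPKM in VecRPPH1 cells and 0.052 ± 0.0798 FPKM in VecNC cells. Of 8 leukocyte markers in the table, 5 were under 1 FPKM in every library, among them PTPRC, the common leukocyte antigen. NKG7, a marker of cytotoxic lymphocytes, was listed at 0 throughout. The summed level of the leukocyte markers was 103 to 106 FPKM in VecRPPH1 cells and 106 to 110 FPKM in VecNC cells, nearly all of it from CD68, a lysosomal protein gene with 103 ± 0.942 FPKM in VecRPPH1 cells and 106 ± 2.103 FPKM in VecNC cells. The other leukocyte markers that reached 1 FPKM in any library were CSF1R and LYZ. Of the 8 fibroblast and endothelial markers, 7 stayed under 1 FPKM in every library, and the exception was the collagen gene COL1A1.

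The 4 IFIT members lie together on chromosome 10 within 137 kb, from 89283694 to 89421001 (GRCh38, GENCODE 29), all on the plus strand. In order along the chromosome, IFIT2 spans 89283694 to 89309276, IFIT3 spans 89327894 to 89340971, IFIT1 spans 89392546 to 89406486 and IFIT5 spans 89414586 to 89421001. IFIT1B, a relative of IFIT1, sits between IFIT3 and IFIT1 from 89378056 to 89385205. The gene LIPA, which encodes lysosomal acid lipase, is annotated on the minus strand from 89213569 to 89414557 and therefore covers IFIT2, IFIT3 and IFIT1. Its exons share 65 of the 4101 exonic bases of IFIT2 and 0 exonic bases of IFIT1 and IFIT3. The other 4 members are spread over the genome, with IFIH1 on the minus strand of chromosome 2 from 162267079 to 162318703, EIF2AK2 on the minus strand of chromosome 2 from 37099210 to 37157065, TLR3 on the plus strand of chromosome 4 from 186069152 to 186088069, and MAVS on the plus strand of chromosome 20 from 3846799 to 3876123. All 8 are annotated as protein coding.

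Promoter windows of 300 bases, from 250 bases before to 50 after the annotated start, were found for 7 of the 8 genes in RefSeq (GRCh38.p14), all but IFIT2, with 2 starts for IFIT3. They were searched on both strands for GAAA followed by any 2 bases and again GAAA, the core of the interferon-stimulated response element (ISRE) that ISGF3 binds. The core was present in 6 of these 7 genes, while 3.57% of the 35116 promoter windows in the table hold it. Below are the windows of IFIT1 and IFIH1, whose FPKM did not overlap between groups, of IFIT5, whose FPKM overlapped, and of MAVS, whose window does not hold the core. Motif counts were not tested against fold changes. They cover chr10:89392373-89392672 on the plus strand for IFIT1, chr2:162318635-162318934 on the minus strand for IFIH1, chr10:89414318-89414617 on the plus strand for IFIT5 and chr20:3846584-3846883 on the plus strand for MAVS. Each is written 5' to 3' along its gene, and capitals mark the ISRE core on either strand.
IFIT1 promoter: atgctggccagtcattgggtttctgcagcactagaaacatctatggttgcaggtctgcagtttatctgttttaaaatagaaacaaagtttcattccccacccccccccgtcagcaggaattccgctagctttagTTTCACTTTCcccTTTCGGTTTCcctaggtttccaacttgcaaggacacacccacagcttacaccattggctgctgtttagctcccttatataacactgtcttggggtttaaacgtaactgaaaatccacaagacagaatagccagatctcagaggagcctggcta
IFIH1 promoter: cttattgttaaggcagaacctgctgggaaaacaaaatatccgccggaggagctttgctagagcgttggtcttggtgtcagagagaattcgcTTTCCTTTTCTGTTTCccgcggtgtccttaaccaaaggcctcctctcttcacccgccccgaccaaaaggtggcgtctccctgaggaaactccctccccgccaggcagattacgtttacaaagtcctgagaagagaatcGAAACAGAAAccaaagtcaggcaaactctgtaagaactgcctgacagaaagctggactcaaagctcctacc
IFIT5 promoter: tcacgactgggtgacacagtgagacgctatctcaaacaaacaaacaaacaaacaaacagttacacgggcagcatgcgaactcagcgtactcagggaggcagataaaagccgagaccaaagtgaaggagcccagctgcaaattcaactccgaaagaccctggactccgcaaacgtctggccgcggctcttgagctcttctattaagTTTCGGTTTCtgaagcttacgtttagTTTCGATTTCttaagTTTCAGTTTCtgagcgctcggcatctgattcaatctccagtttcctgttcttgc
MAVS promoter: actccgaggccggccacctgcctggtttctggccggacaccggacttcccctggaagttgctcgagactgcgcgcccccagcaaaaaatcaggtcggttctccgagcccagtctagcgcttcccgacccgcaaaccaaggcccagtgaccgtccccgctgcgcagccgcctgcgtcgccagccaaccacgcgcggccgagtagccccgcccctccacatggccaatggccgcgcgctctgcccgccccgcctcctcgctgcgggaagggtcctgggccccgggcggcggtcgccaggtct

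IFIT1 holds 2 cores on its minus strand, at -116 to -107 and at -103 to -94 from the start (the base before the start is -1 and the start base itself is 1). IFIT5 holds 3, at -45 to -36, at -19 to -10 and at -4 to 6. IFIH1 holds 3, of which the pair at -159 to -150 and at -153 to -144 overlap each other, and the third lies at -21 to -12. Both IFIT3 windows hold 2, at -156 to -147 and -122 to -113 for the upstream start and at -94 to -85 and -51 to -42 for the downstream one. TLR3 holds 1 at -4 to 6 and EIF2AK2 holds 1 at -6 to 4, both across the start. The same 10 letters, TTTCACTTTC, occur in IFIT1, in both IFIT3 windows and in TLR3. The gamma-activated site TTCNNNGAA, a motif of interferon gamma responses, was found in TLR3 alone among the 7 genes, with 2 matches, against 7.66% of all windows. A match shows letters only, and binding was not measured.

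**Figure D1:**
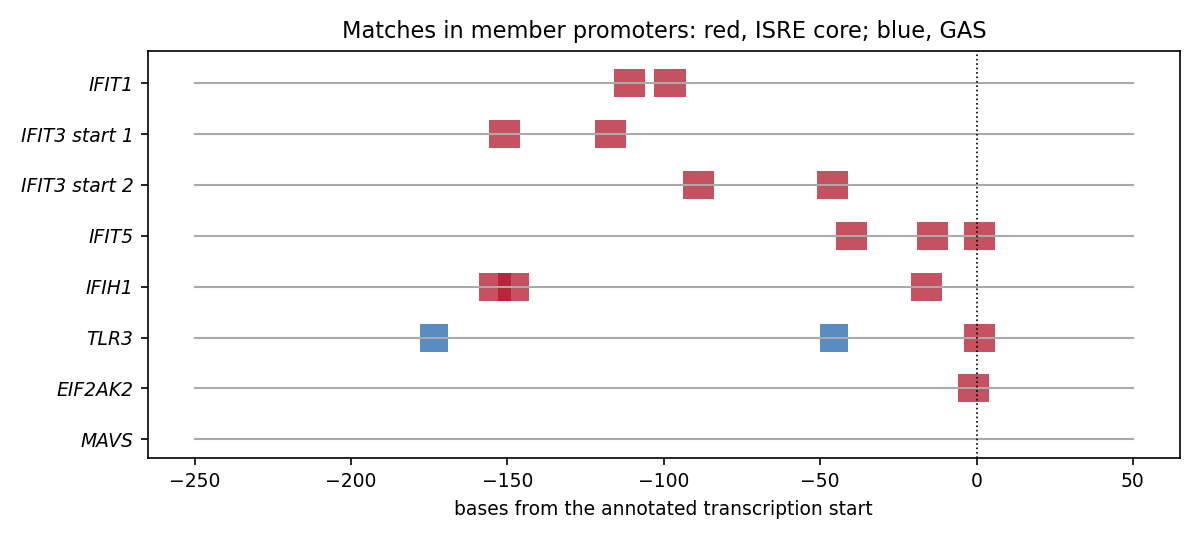
Matches in the promoter windows of 7 members (1 line each; IFIT3 has 2 annotated starts), by bases from the annotated transcription start (horizontal axis). Red boxes are ISRE cores and blue boxes gamma-activated sites; each line but MAVS carries at least 1 red box, and IFIT5 and IFIH1 carry 3.

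IFIT1 and IFIT2 had higher FPKM in every VecRPPH1 library than in any VecNC library, while the values of IFIT3 and IFIT5 overlapped between groups. IFIT1 was at 10.1, 10.9 and 10.3 FPKM in VecRPPH1 replicates 1, 2 and 3, against 8.17, 7.74 and 8.06 FPKM in VecNC replicates 1, 2 and 3. The lowest VecRPPH1 library stood above the highest VecNC library, and the SD within a group was small beside the gap, at 0.408 FPKM in VecRPPH1 cells and 0.223 FPKM in VecNC cells. The mean FPKM was 1.31 times that of VecNC cells, and the log2 fold change on the log2(FPKM + 1) scale was 0.35 with an SE of 0.0507. The values rest on 817 to 883 fragments per VecRPPH1 library and 636 to 694 fragments per VecNC library.

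IFIT2 was at 21.7, 20.3 and 19.7 FPKM in VecRPPH1 replicates 1, 2 and 3, against 17.7, 14.9 and 16.7 FPKM in VecNC replicates 1, 2 and 3. The groups did not overlap, and VecNC replicate 2 was the lowest of all. The ratio of mean FPKM was 1.25 and the log2 fold change 0.31 with an SE of 0.0644. IFIT2 shares its locus with a noncoding gene on the same strand, AL353751.1, and 8.40% of the 50-base windows of its longest transcript also occur in transcripts of other genes, so part of its FPKM depends on how such reads were assigned. For IFIT1 this share was 1.03% and for IFIT5 it was 0%.

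IFIT3 was the most abundant member, at 40.8, 39.6 and 35.9 FPKM in VecRPPH1 replicates 1, 2 and 3, against 36.8, 34.4 and 36.1 FPKM in VecNC replicates 1, 2 and 3. VecRPPH1 replicate 3 lay within the VecNC range, so the groups overlapped. Its log2 fold change was 0.11 with an SE of 0.0531. IFIT5 was at 11.5, 11.6 and 11.8 FPKM in VecRPPH1 replicates 1, 2 and 3, against 11.0005, 11.97 and 10.7 FPKM in VecNC replicates 1, 2 and 3. VecNC replicate 2 was above all 3 VecRPPH1 libraries. Its log2 fold change was 0.05 with an SE of 0.0517.

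**Figure D2:**
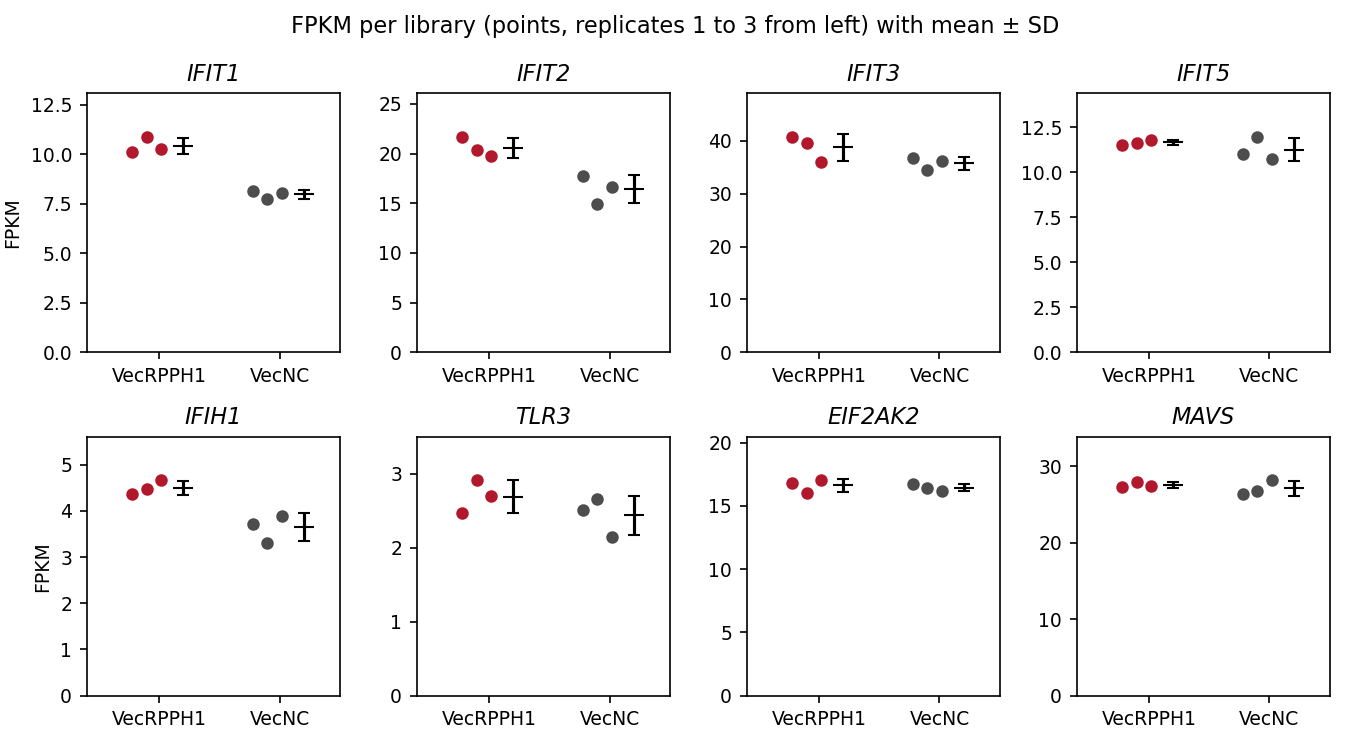
FPKM of each member (vertical axes, starting at 0) in VecRPPH1 and VecNC libraries; points are replicates 1 to 3 from left and black marks the mean ± SD. Points of the groups do not overlap for IFIT1, IFIT2 and IFIH1, and overlap for the other 5 members.

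Within the family IFIT3 held the largest share of the FPKM and IFIT2 the next in every library of both groups. The shares of IFIT1, IFIT2 and IFIT3 did not overlap between groups. They restate the FPKM values above and depend on each other, so they are no separate result. A higher share of IFIT1 and IFIT2 lowers that of the rest. The mean FPKM of IFIT3 itself was 38.8 in VecRPPH1 cells and 35.8 in VecNC cells. Of the FPKM summed over the 4 IFIT members, IFIT3 held 46.3% to 48.5% in VecRPPH1 libraries and 49.8% to 50.4% in VecNC libraries. IFIT2 held 24.6% to 25.8% in VecRPPH1 libraries and 21.6% to 24.1% in VecNC libraries. IFIT1 held 12.03% to 13.2% in VecRPPH1 libraries and 11.1% to 11.3% in VecNC libraries, higher in VecRPPH1 like that of IFIT2, while that of IFIT3 was lower. The share of IFIT5 overlapped, at 13.7% to 15.2% in VecRPPH1 libraries and 14.9% to 17.3% in VecNC libraries. The summed FPKM itself was 81.5 ± 3.36 in VecRPPH1 cells and 71.5 ± 2.34 in VecNC cells. The neighbour IFIT1B was listed at 0 in the 3 VecRPPH1 libraries and in VecNC replicate 1, and at 0.0279 and 0.0276 FPKM in VecNC replicates 2 and 3. LIPA, on the opposite strand, was at 29.96, 30.5 and 27.99 FPKM in VecRPPH1 replicates 1, 2 and 3, against 26.7, 28.2 and 30.2 FPKM in VecNC replicates 1, 2 and 3, and its groups overlapped. The libraries were made with a stranded kit, but the labels do not say whether counting used the strand.

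Of the 3 double-stranded RNA sensors, IFIH1 had higher FPKM in every VecRPPH1 library, and TLR3 and EIF2AK2 overlapped between groups. IFIH1 was at 4.35, 4.46 and 4.66 FPKM in VecRPPH1 replicates 1, 2 and 3, against 3.72, 3.31 and 3.90 FPKM in VecNC replicates 1, 2 and 3. The lowest VecRPPH1 value exceeded the highest VecNC value. The ratio of mean FPKM was 1.23 and the log2 fold change 0.24 with an SE of 0.0655. IFIH1 is a low gene, with 285 to 294 fragments per VecRPPH1 library and 216 to 256 fragments per VecNC library. Counting error alone gives a coefficient of variation of 6.14% at that depth, against an observed 3.49% in VecRPPH1 cells and 8.23% in VecNC cells.

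TLR3, the endosomal sensor, had the lowest level of the members, at 2.47, 2.92 and 2.70 FPKM in VecRPPH1 replicates 1, 2 and 3, against 2.51, 2.67 and 2.15 FPKM in VecNC replicates 1, 2 and 3. The groups overlapped, and the log2 fold change of 0.10 had an SE of 0.0792. EIF2AK2, the translation-inhibiting kinase gene, was at 16.8, 15.99 and 17.03 FPKM in VecRPPH1 replicates 1, 2 and 3, against 16.7, 16.4 and 16.2 FPKM in VecNC replicates 1, 2 and 3. Both the lowest and the highest library were VecRPPH1 ones. Its log2 fold change was 0.01 with an SE of 0.0447, and it was -0.0033 without VecRPPH1 replicate 3. A pseudogene on the opposite strand, AC007899.1, overlaps 3.73% of its exonic bases.

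MAVS, the adaptor downstream of IFIH1, was at 27.3, 27.96 and 27.4 FPKM in VecRPPH1 replicates 1, 2 and 3, against 26.3, 26.8 and 28.2 FPKM in VecNC replicates 1, 2 and 3. The VecRPPH1 libraries lay inside the VecNC range. Its log2 fold change was 0.02 with an SE of 0.0422. MAVS was counted from 5713 to 6131 fragments per library, the most of any member, and its counting error of 1.30% is the smallest.

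The order of mean FPKM was the same in both groups, with IFIT3 first, then MAVS, IFIT2, EIF2AK2, IFIT5, IFIT1, IFIH1 and TLR3. In VecRPPH1 cells the ranges of neighbours in that order did not overlap. In VecNC cells IFIT2, at 16.5 ± 1.41 FPKM, and EIF2AK2, at 16.4 ± 0.263 FPKM, overlapped, and no other neighbours did. Among the 10909 tested genes, 82.6% had a lower mean FPKM than IFIT3 and 12.4% a lower mean than TLR3. The members therefore ranged from low to upper-middle levels.

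Of the 8 members, 3 had groups that did not overlap with VecRPPH1 higher, against a background of 7.98% of the tested genes, and 0 had them with VecRPPH1 lower, against a background of 5.88% (13.9% in either direction). In the limma fit across all genes with Benjamini-Hochberg adjustment, 0 of the 8 passed an adjusted p of 0.05 in either direction. Among all tested genes, 0 passed higher (0%) and 1 passed lower (0.00917%), which is neither a member nor a gene of the lists below. At an unadjusted p under 0.05, 3 members were higher and 0 lower, where 4.29% of tested genes were higher, 3.68% lower and 7.97% either. The smallest adjusted p among the members by limma was 0.071 for IFIT1, followed by 0.306 for IFIT2 and 0.411 for IFIH1. limma-voom on the recovered fragments put 1 member past the threshold, IFIT1 with an adjusted p of 0.0138, where 7 genes passed higher (0.0642%) and 10 passed lower (0.0917%) among all tested genes, 0.156% in either direction. Since the comparison helped to choose the members, these counts describe them and are no independent evidence. The median log2 fold change over the 8 members was 0.11, and that over all tested genes was 0.0046.

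**Figure D3:**
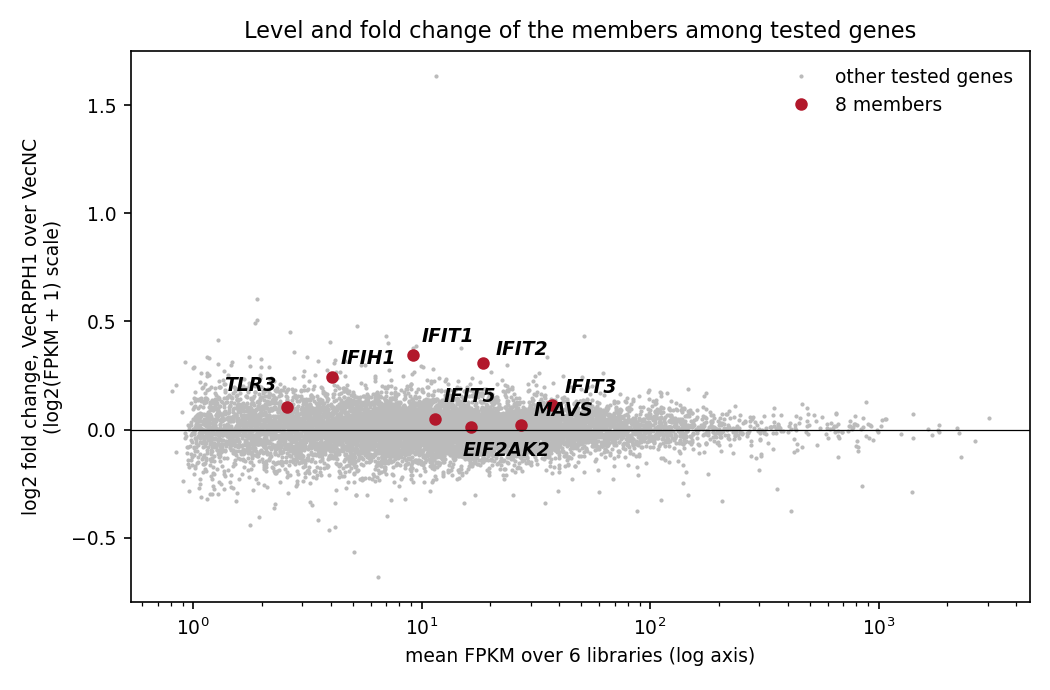
Log2 fold change of VecRPPH1 over VecNC on the log2(FPKM + 1) scale (vertical axis) against mean FPKM over 6 libraries (horizontal log axis) for the 10909 tested genes, with the 8 members in red. IFIT1, IFIT2 and IFIH1 sit at 0.35, 0.31 and 0.24, and EIF2AK2, MAVS and IFIT5 within the dense band near 0.

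Size alone put IFIT1 at rank 28 and IFIT2 at rank 53 among the 10909 tested genes by absolute log2 fold change, with IFIH1 at rank 129. IFIT3 held rank 1639, TLR3 rank 1922 and IFIT5 rank 5399, while MAVS and EIF2AK2 were at ranks 8082 and 9190. The log2 fold changes of the members ran from 0.01 to 0.35, and those of all tested genes from -0.68 to 1.64. IFIT1, IFIT2 and IFIH1 stayed above 0 under every setting in which they were tested. Their ranges were 0.32 to 0.38 for IFIT1, 0.24 to 0.36 for IFIT2 and 0.19 to 0.30 for IFIH1. Where groups do not overlap, leaving out a library or changing the pseudocount cannot change the sign. The filters, the replicate block and the fit without the variance trend return the same log2 fold change. Only rescaling and voom could have changed the sign for IFIT1, IFIT2 and IFIH1. A stable sign was not particular to these genes. IFIT3, IFIT5, TLR3 and MAVS also stayed above 0, MAVS at as little as 0.0031. Without VecNC replicate 1, the library that stood apart, the log2 fold changes were 0.36 for IFIT1, 0.36 for IFIT2 and 0.26 for IFIH1.

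**Figure D4:**
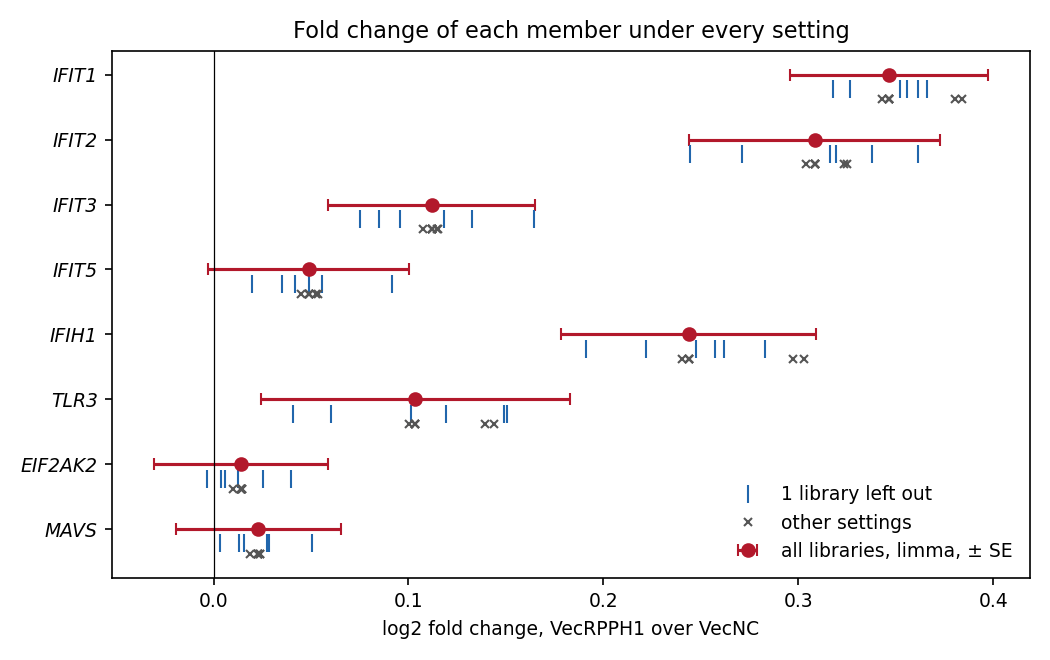
Log2 fold change of VecRPPH1 over VecNC (horizontal axis) for each member, with all libraries (red, ± SE), with 1 library left out (blue ticks) and under the other settings (crosses). The ticks of EIF2AK2 reach -0.0033, and those of IFIT1 stay between 0.32 and 0.37.

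Likeness to IFIT1 was read as the Pearson r of log2(FPKM + 1) over the 6 libraries. The search left out the members and genes with a mean under 1 FPKM. It also left out symbols of clones, unnamed loci, antisense transcripts and numbered open reading frames. Closest among the genes searched were LPAR1 (Pearson r 0.991), TDRD7 (0.988), KIFC1 (0.986), SLC38A4 (0.985) and MRFAP1 (0.976). The 6 points share the group difference, and 129 tested genes had an r over 0.9, so such values are a description only. LPAR1, a receptor for lysophosphatidic acid, averaged 14.97 ± 0.0796 FPKM in VecRPPH1 cells and 13.5 ± 0.216 FPKM in VecNC cells. TDRD7, a tudor domain protein gene, averaged 7.19 ± 0.135 FPKM in VecRPPH1 cells and 6.55 ± 0.0762 FPKM in VecNC cells. Among the members, IFIH1 had an r of 0.922 with IFIT1 and IFIT2 one of 0.903. IFIT3 followed at 0.713 and TLR3 at 0.558, with MAVS at 0.403, IFIT5 at 0.386 and EIF2AK2 at 0.115.

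In the deposited gene annotation, all 8 members carried the Gene Ontology term defense response to virus, which 1.17% of the tested genes carried. Cellular response to exogenous dsRNA was held by 4 of them, IFIT1, IFIH1, TLR3 and MAVS, and by 15 tested genes in all. The members were chosen by pathway, so carrying such terms follows from that choice and is not a result of these data.

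The rest of the sensing pathway was read from 8 lists of 183 different genes, none of them a member. Of these, 176 were in the table and 155 were tested. By limma 0 of 155 passed over all genes in either direction, and by voom also 0. At an unadjusted p under 0.05, 9 were higher (4.29% of all tested genes were) and 4 lower (3.68%). Groups did not overlap in 16 with VecRPPH1 higher (background 7.98%) and in 9 with VecRPPH1 lower (background 5.88%). The median log2 fold change of the 155 was 0.01, beside 0.0046 for all tested genes.

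**Figure D5:**
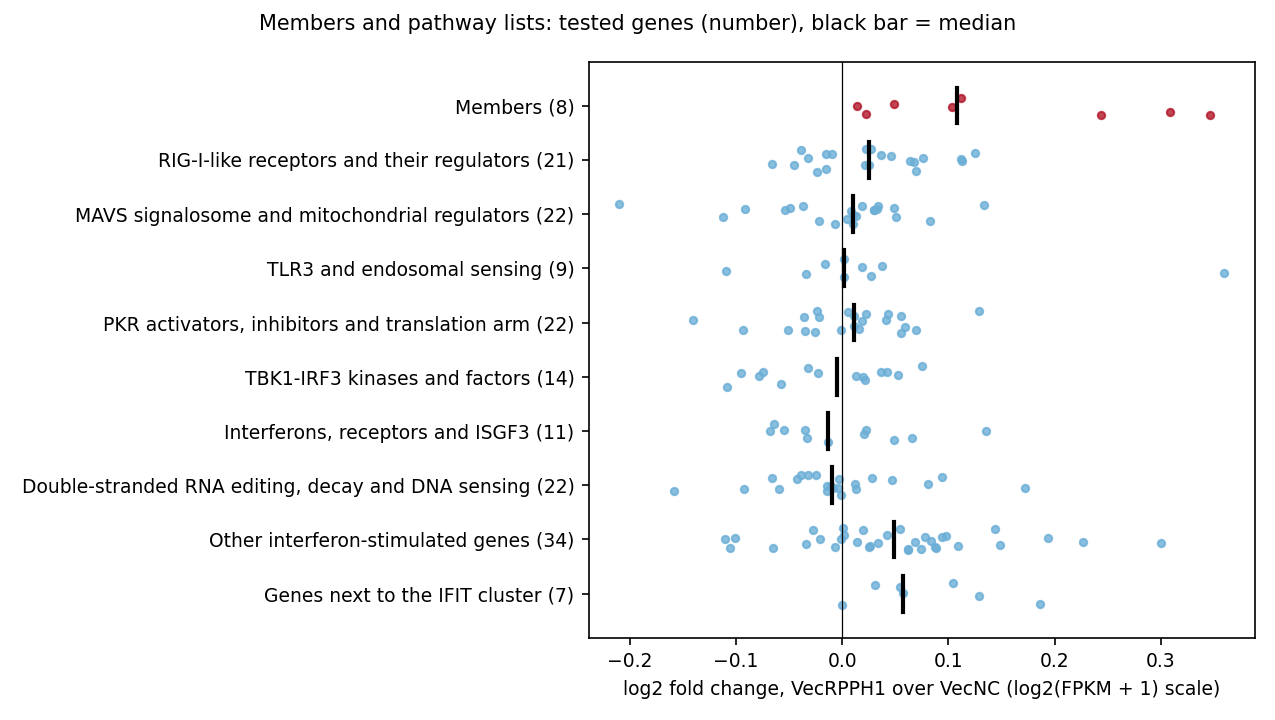
Log2 fold change of VecRPPH1 over VecNC on the log2(FPKM + 1) scale (horizontal axis) for tested genes of the members (red) and of 9 gene lists (blue), with the number tested and the median as a black bar. The medians of the lists lie between -0.01 and 0.06, and that of the members is 0.11.

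Other cytosolic receptors and their regulators gave 0 calls among 21 tested genes by limma and by voom, with 1 higher and 0 lower at an unadjusted p under 0.05 and a median log2 fold change of 0.03. DDX58, which encodes RIG-I, the sensor of 5' triphosphate RNA, averaged 21.8 ± 0.576 FPKM in VecRPPH1 cells and 22.1 ± 1.008 FPKM in VecNC cells, so it stood several times above IFIH1 in FPKM in both groups. DHX58, the third receptor of that family, averaged 2.13 ± 0.388 FPKM in VecRPPH1 cells and 2.15 ± 0.132 FPKM in VecNC cells. Groups overlapped for both genes. TRIM25, a ubiquitin ligase that acts on RIG-I, was at 57.4 to 59.7 FPKM in VecRPPH1 libraries and 55.3 to 56.3 FPKM in VecNC libraries, without overlap, with a log2 fold change of 0.07 and a limma adjusted p of 0.675. RNF135, another ligase of RIG-I, averaged 11.3 ± 0.133 FPKM in VecRPPH1 cells and 10.4 ± 0.950 FPKM in VecNC cells. ZC3HAV1, the zinc finger antiviral protein gene, averaged 9.84 ± 0.564 FPKM in VecRPPH1 cells and 9.02 ± 0.342 FPKM in VecNC cells.

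Genes around MAVS gave 0 calls among 22 tested by limma and by voom, with 1 higher and 2 lower at an unadjusted p under 0.05 and a median of 0.01. TRAF3, a ligase recruited by MAVS and by the TLR3 adaptor, was at 7.98 to 8.46 FPKM in VecRPPH1 libraries and 8.85 to 9.06 FPKM in VecNC libraries. Its groups did not overlap, VecRPPH1 being the lower, with a log2 fold change of -0.11 and a limma adjusted p of 0.617. TRAF6 averaged 2.66 ± 0.167 FPKM in VecRPPH1 cells and 2.803 ± 0.256 FPKM in VecNC cells. NLRX1, a mitochondrial regulator of MAVS signalling, averaged 3.08 ± 0.0849 FPKM in VecRPPH1 cells and 3.07 ± 0.132 FPKM in VecNC cells.

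The endosomal list around TLR3 gave 0 calls among 9 tested genes by limma and by voom, with 1 higher and 0 lower at an unadjusted p under 0.05 and a median of 0.0022. The adaptor gene TICAM1 averaged 6.18 ± 0.748 FPKM in VecRPPH1 cells and 6.17 ± 0.7204 FPKM in VecNC cells. The gene at the unadjusted p was CD14, a coreceptor of Toll-like receptors, named after its values were seen. It was at 3.08, 3.14 and 3.46 FPKM in VecRPPH1 replicates 1, 2 and 3, against 2.12, 2.19 and 2.57 FPKM in VecNC replicates 1, 2 and 3. Its log2 fold change was 0.36 with a limma adjusted p of 0.306 and a voom adjusted p of 0.429. CD14 rests on 61 to 93 fragments per library, fewer than any member. TLR7, TLR8 and TLR9, the other endosomal nucleic acid receptors, were below the filter on low values.

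On the PKR side, 0 of 22 tested genes passed by limma or voom, with 1 higher and 1 lower at an unadjusted p under 0.05 and a median of 0.01. PRKRA, the protein activator of PKR, averaged 17.7 ± 0.915 FPKM in VecRPPH1 cells and 16.8 ± 1.16 FPKM in VecNC cells. TARBP2, an inhibitor of PKR, averaged 15.4 ± 0.629 FPKM in VecRPPH1 cells and 15.7 ± 1.38 FPKM in VecNC cells. EIF2S1, which encodes the eIF2 alpha that PKR phosphorylates, averaged 53.9 ± 2.13 FPKM in VecRPPH1 cells and 55.3 ± 2.64 FPKM in VecNC cells. Groups overlapped for these 3 genes. In the whole list groups did not overlap in 1 gene with VecRPPH1 higher (background 7.98%) and in 2 with VecRPPH1 lower (background 5.88%). These genes are named here after their values were seen. ATF4, a transcription factor whose translation follows eIF2 alpha phosphorylation, averaged 39.997 ± 0.951 FPKM in VecRPPH1 cells and 36.5 ± 0.503 FPKM in VecNC cells (log2 fold change 0.13, limma adjusted p 0.465). PPP1R15A, which directs a phosphatase to eIF2 alpha, averaged 110.8 ± 1.21 FPKM in VecRPPH1 cells and 122.5 ± 10.1 FPKM in VecNC cells (-0.14, limma adjusted p 0.573). Its VecNC values were 133.8, 119.4 and 114.4 FPKM in replicates 1, 2 and 3, and the highest VecRPPH1 library was at 112 FPKM. VecNC replicate 1, the highest, is the library that stood apart. EIF2AK4, an eIF2 alpha kinase that senses amino acid shortage, averaged 17.2 ± 0.415 FPKM in VecRPPH1 cells and 18.4 ± 0.457 FPKM in VecNC cells (-0.09, limma adjusted p 0.647).

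The kinases and factors between the receptors and interferon gave 0 calls among 14 tested genes by limma and by voom, 0 at an unadjusted p under 0.05, and a median of -0.0051. TBK1, the kinase of IRF3, averaged 13.7 ± 0.673 FPKM in VecRPPH1 cells and 13.5 ± 1.56 FPKM in VecNC cells. IRF3 averaged 38.9 ± 2.59 FPKM in VecRPPH1 cells and 40.9 ± 0.875 FPKM in VecNC cells. IRF7, the related factor that interferon itself induces, averaged 7.65 ± 0.616 FPKM in VecRPPH1 cells and 8.32 ± 0.522 FPKM in VecNC cells.

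Interferons, their receptors and ISGF3 gave 0 calls among 11 tested genes by limma and by voom, 0 at an unadjusted p under 0.05, and a median of -0.01. IFNB1, the interferon beta gene, was listed at 0 in all 6 libraries. The receptor chain IFNAR1 averaged 13.7 ± 0.457 FPKM in VecRPPH1 cells and 13.4 ± 0.248 FPKM in VecNC cells, and IFNAR2 averaged 3.62 ± 0.442 FPKM in VecRPPH1 cells and 3.403 ± 0.1296 FPKM in VecNC cells. STAT2 and IRF9, subunits of ISGF3, overlapped between groups. STAT2 averaged 15.2 ± 1.18 FPKM in VecRPPH1 cells and 15.9 ± 0.297 FPKM in VecNC cells, and IRF9 averaged 15.4 ± 2.01 FPKM in VecRPPH1 cells and 15.1 ± 0.951 FPKM in VecNC cells.

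Genes that edit or degrade double-stranded RNA or sense DNA gave 0 calls among 22 tested by limma and by voom, with 0 higher and 1 lower at an unadjusted p under 0.05 and a median of -0.0095. ADAR, which edits adenosines in double-stranded RNA and so limits sensing of the cell's own transcripts, was at 45.02 to 46.3 FPKM in VecRPPH1 libraries and 43.7 to 44.3 FPKM in VecNC libraries. The groups did not overlap, with a log2 fold change of 0.05 and a limma adjusted p of 0.775.

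Other interferon-stimulated genes gave 0 calls among 34 tested by limma and by voom, with 5 higher and 0 lower at an unadjusted p under 0.05 (4.29% and 3.68% of all tested genes). Of the 34, 25 had higher and 9 lower means in VecRPPH1 cells, against 52.3% with higher means among all tested genes, and their median log2 fold change was 0.05. Groups did not overlap in 6 with VecRPPH1 higher (background 7.98%) and in 1 with VecRPPH1 lower (background 5.88%). IFI44 averaged 15.8 ± 0.506 FPKM in VecRPPH1 cells and 13.7 ± 0.6995 FPKM in VecNC cells, without overlap (log2 fold change 0.19, limma adjusted p 0.398). OASL, a relative of the oligoadenylate synthetases that enhances RIG-I signalling, averaged 11.9 ± 1.43 FPKM in VecRPPH1 cells and 10.1 ± 1.05 FPKM in VecNC cells, with overlap (0.23, limma adjusted p 0.573). ISG15, a ubiquitin-like modifier, averaged 72.99 ± 2.62 FPKM in VecRPPH1 cells and 72.95 ± 3.73 FPKM in VecNC cells, a log2 fold change of 0.0014. MX1, MX2, OAS1 and RSAD2, which encode antiviral effectors of the same response, were below the filter on low values in both groups. Genes next to the IFIT cluster gave 0 calls among 7 tested by limma and by voom, with 1 higher and 0 lower at an unadjusted p under 0.05 and a median of 0.06.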

How the data were processed

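The authors deposited FPKM values, 1 column per library, for 6 libraries of total RNA made with a stranded mRNA kit, per the labels. Trimmomatic, HISAT2, Cufflinks and GRCh38 are named in the submitters' processing notes, with no versions or annotation release stated there. The filter kept genes that reached 1 FPKM in 3 or more libraries. limma 3.58.1 under R 4.3.3 then fitted group as the only term to log2(FPKM + 1), with the variance trend on. This scale understates changes of low genes. P-values were adjusted over 10909 genes by Benjamini-Hochberg, with a threshold of 0.05. An exact permutation test of 3 against 3 cannot go below a two-sided p of 0.1. Whole fragments were recovered from the FPKM steps (whole for all 10909 tested genes, with an absolute tolerance of 0.01 fragments and a relative one of 3e-08) and used for limma-voom. Library totals were 17603126 to 18817269 fragments, and replicate pairs gave chi-square values of 2.21 to 8.36 relative to their degrees of freedom, more than sampling noise, so each counted as 1 sample. The steps were tested on simulated data. Members, lists and named genes were chosen with earlier results of these data known. Named were all 8 members, other pathway genes by role and any list gene past the threshold. Also named were the 5 genes with the highest correlation with IFIT1 after the exclusions given above. CD14, ATF4, PPP1R15A, EIF2AK4, TLR7, TLR8, TLR9, MX1, MX2, OAS1, RSAD2 and the cell type markers given with values or by name were picked from the lists after their values were seen. In all, 7 list genes were not analysed here, and some single-gene values are not reported here. Alternatives were another pseudocount (0.1), other filters (none, and 5 FPKM), a replicate block, each library left out in turn, median-of-ratios rescaling, voom, no variance trend and group medians, with overlap of groups when a library is left out added after seeing the data.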

Additional observations from a re-analysis of the deposited data

How the results depend on the processing

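IFIT1 alone among the members passed an adjusted p of 0.05 under any setting. It did so with voom (adjusted p 0.0138) and with a filter of at least 5 FPKM (0.0486), each giving 1 member higher, and its adjusted p over all settings was 0.0138 to 0.377. The cause was not tested. Genes higher in VecRPPH1 cells numbered 2 of the 8115 tested with the 5 FPKM filter and 7 of the 10909 tested with voom. Genes lower numbered 6 with that filter, 10 with voom, and 0 without the variance trend, with no filter on low values or with the replicate block. With 1 library left out, the lower count was 0 to 7. It was 7 without VecNC replicate 1 and 0 without VecNC replicate 2, VecNC replicate 3, VecRPPH1 replicate 1 or VecRPPH1 replicate 2. Leaving out a library cannot make groups overlap that did not, so IFIT1, IFIT2 and IFIH1 stayed without overlap by construction. Members without overlap, VecRPPH1 higher, numbered 3 to 4 when a library was left out, and 3 without VecNC replicate 1. The share of tested genes of that kind was then 11.6% to 14.3% (14.2% without VecNC replicate 1), against 7.98% with all libraries. The one sign change among the members was EIF2AK2, whose log2 fold change was -0.0033 to 0.0396 with a library left out. With the 5 FPKM filter IFIH1 and TLR3 were not tested. Group medians differed from means by less than 1 SD for every member, but this holds for any 3 values that differ and is no check.

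The groups shared replicate numbers, and the labels did not say whether same-numbered libraries were prepared together. Deviations of same-numbered libraries from their group means correlated at 0.0566, 0.018 and -0.104, and not every library correlated best with its own number. With 3 libraries per group these values cannot decide whether the libraries were paired. With the replicate block IFIT1 had an adjusted p of 0.159 by limma. The depth limits TLR3 and IFIH1 most, with 216 to 315 fragments per library.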
